A study of Mus musculus with 6 samples.

Results

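Immediate-early genes are switched on within minutes of a stimulus, without new protein synthesis, because the factors that act on their promoters are already present in the resting cell. Growth factors reach them largely through the ERK pathway and the serum response factor (SRF) with its ternary complex partners, and cyclic AMP reaches them through CREB. Their transcripts are short-lived, so that a pulse of transcription leaves little mRNA some hours later, and many of their proteins are transcription factors that start the next wave of expression. The genes described here are 9 immediate-early genes that do not belong to AP-1: the EGR zinc finger factors (Egr1, Egr2 and Egr3), the NR4A orphan nuclear receptors (Nr4a1, Nr4a2 and Nr4a3) and the immediate early response genes Ier2, Ier3 and Ier5. They were taken by symbol from the count table, where all 9 were found among 21240 genes.

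The cells were NMuMG, an epithelial line from the normal mouse mammary gland that responds to TGFβ1, a cytokine that acts through SMAD factors and also through ERK and other kinases, with an epithelial to mesenchymal transition. All 6 libraries came from cells held for 6 h without serum and insulin. They were then given TGFβ1 at 5 ng/ml for 2 h, TGFβ1 at 5 ng/ml for 12 h, or vehicle for 2 h, with 2 biological replicates in each group. The vehicle was albumin in dilute HCl by the protocol and in Tris-HCl by the sample labels. Vehicle was sampled at 2 h alone, so that in every comparison with the 12 h group TGFβ1 time and time without serum cannot be told apart. The earliest RNA was taken at 2 h, so that a pulse that ended before then would not be seen. Stranded total RNA was sequenced, and the deposited read counts per gene were scaled here with TMM factors to CPM, which sets the reads of a gene against the size of its library. A level in such bulk RNA cannot tell fewer expressing cells from less RNA per cell.

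Total counts ran from 14705886 to 23786993 per library. The TGFβ response genes Smad7 and Skil had a log2 fold change (log2FC) of 2.07 and 2.09 at 2 h and of 2.65 and 2.21 at 12 h, and each passed the test used throughout, the quasi-likelihood F test of edgeR at a Benjamini-Hochberg adjusted p under 0.05. Of 6 epithelial markers, Cdh1, Krt8, Krt18 and Krt19 were well above 2 CPM in every library, whereas Epcam stayed below 1 CPM and Cldn3 was at 0 counts in 5 of the libraries. The summed level of the epithelial markers was 4960 and 5780 CPM in the vehicle libraries and 10300 and 10400 CPM at 12 h, and that of the mesenchymal markers was 2080 and 2220 CPM and then 4670 and 4730 CPM. The epithelial markers did not move as one, since Krt8 and Krt18 carried the higher sum, while Krt19 was at 1845 and 1664 CPM in the vehicle libraries and at 419.9 and 489.3 CPM at 12 h, and Cdh1 at 420.6 and 362.7 CPM and then 406.7 and 337.3 CPM. The part of these markers in the results below was not tested. Of the leukocyte markers, the defining gene Ptprc had at most 4 counts in any library, Cd14 between 101.6 and 173 CPM, and Cd68 between 4.14 and 6.56 CPM. Each of the endothelial markers Pecam1, Cdh5 and Kdr was below 2 CPM in all libraries.

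Promoter sequences were available for 6 of the 9 genes (Egr2, Nr4a1, Nr4a2, Nr4a3, Ier3 and Ier5) in a RefSeq table on GRCm38.p6, as windows of 300 bases from 250 before to 50 after the start of transcription. Egr1, Egr3 and Ier2 had no entry. Windows were searched on both strands for the CArG box bound by SRF, for the cyclic AMP response element TGACGTCA and its shorter core TGACG, for the AP-1 site TGACTCA, and for CAGAC, the letters of a SMAD box. TGACG lies inside TGACGTCA. The CArG box was searched as CC, then 6 letters A or T, then GG, with no mismatch allowed. The stretches below end just before the start of transcription, or before any annotated transcript, and are shown because they hold the motifs found near Egr2 and the NR4A genes. Capitals mark the CArG box and TGACG on either strand, where the other strand reads CGTCA.
Egr2 (chr10:67537749-67537868, + strand): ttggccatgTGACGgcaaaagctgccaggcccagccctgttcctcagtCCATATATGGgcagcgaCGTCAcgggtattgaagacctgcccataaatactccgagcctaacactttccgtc
Nr4a1 (chr15:101266606-101266845, + strand): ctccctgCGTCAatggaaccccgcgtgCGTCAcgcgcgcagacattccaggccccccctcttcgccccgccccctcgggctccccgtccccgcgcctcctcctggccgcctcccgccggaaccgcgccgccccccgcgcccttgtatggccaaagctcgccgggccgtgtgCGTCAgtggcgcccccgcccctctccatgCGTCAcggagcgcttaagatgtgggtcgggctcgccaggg
Nr4a2 (chr2:57124004-57124243, - strand): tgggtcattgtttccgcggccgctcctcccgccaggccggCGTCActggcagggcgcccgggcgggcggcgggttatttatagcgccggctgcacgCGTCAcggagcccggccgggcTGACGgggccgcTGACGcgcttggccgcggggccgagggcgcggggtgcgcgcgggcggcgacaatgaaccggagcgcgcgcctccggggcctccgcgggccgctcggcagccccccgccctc
Nr4a3 (chr4:48045065-48045152, + strand): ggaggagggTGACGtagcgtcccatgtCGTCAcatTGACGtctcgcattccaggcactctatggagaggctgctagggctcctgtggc

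The Egr2 window shown held a CArG box, CCATATATGG, 72 bases before the start, and 2 copies of TGACG at 111 and 55 bases before it. RefSeq lists 5 start windows for Egr2, and 4 of them held a CArG box, 3 of those by overlap on the same bases. Of all 32851 windows of this length in the table, 1.63% held a CArG box. The windows of Nr4a1, Nr4a2 and Nr4a3 held no exact CArG box and 4 copies of TGACG each, a core found in 20.8% of all windows. Forms with a mismatch were not counted, such as CCTTGTATGG in the Nr4a1 stretch shown. In Nr4a3, 3 of the 4 copies lie in the stretch shown, and the next is 147 bases before the start. The windows of Ier3 and Ier5 held neither. No window of these 6 genes held TGACGTCA (1.79% of all windows) or TGACTCA (5.2%). CAGAC was found in 3 of the 5 Egr2 windows and in those of Nr4a1, Nr4a3 and Ier5, against 49.6% of all windows. These matches describe letters in a window and do not show binding.

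A gene was tested if 2 or more libraries reached 2 CPM, which left 11080 genes, among them 7 of the 9. Egr3 and Nr4a3 did not. Egr2 and Nr4a1 were below 2 CPM in both vehicle libraries and passed only through treated libraries. At 2 h of TGFβ1, Egr2 and Ier2 rose, and no other gene of the 9 passed the test in the fit without a replicate term. At 12 h, 6 of the 7 genes tested were higher than with vehicle, from 2.08-fold for Nr4a2 to 4.41-fold for Nr4a1, when 21.8% of all genes were higher. Egr1, Nr4a2 and Ier3 had mean levels below vehicle at 2 h and well above it at 12 h, whereas Egr2 had its highest mean level at 2 h.

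**Figure D1:**
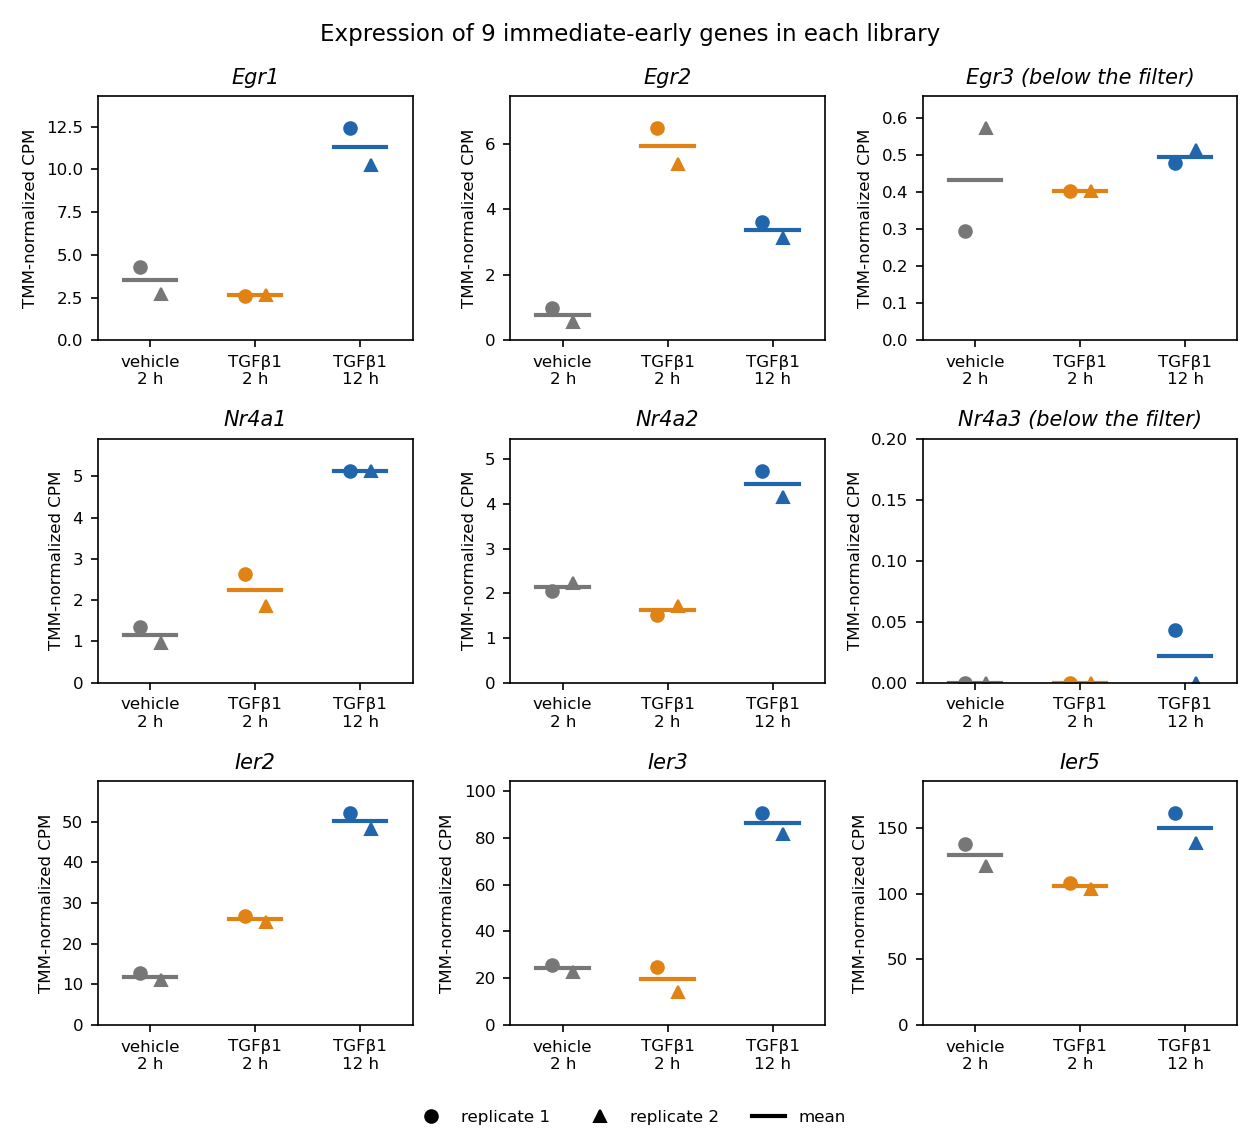
TMM-normalized CPM (y axis, linear, starting at 0, a different range in each panel) of the 9 genes in the vehicle, TGFβ1 2 h and TGFβ1 12 h groups; circles are replicate 1, triangles replicate 2 and bars the mean of the 2 libraries. Egr2 is highest at 2 h, Egr1, Nr4a1, Nr4a2, Ier2 and Ier3 have both 12 h libraries above all others, and Egr3 and Nr4a3 stay below 1 CPM.

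Egr2 (Entrez 13654, chr10:66998223-67004936 on NCBIM37, the mm9 build of the files), an EGR factor known from hindbrain patterning and myelination, had the largest change of the 9 genes at 2 h. It was counted 17 and 9 times in the vehicle libraries, 128 and 107 times at 2 h, and 83 and 61 times at 12 h. In CPM these are 1.00 and 0.573 with vehicle, 6.47 and 5.39 at 2 h, and 3.61 and 3.13 at 12 h, and no group overlapped another. The log2FC at 2 h was 2.90 (SE 0.326, adjusted p = 0.0025 in edgeR), a 7.44-fold increase. Since Egr2 entered the test through the treated libraries, where it is high, it was also fitted with no filter on low counts, and its log2FC at 2 h was then 2.90 (edgeR's adjusted p = 0.000596). A filter of 10 counts in every library leaves it untested. At 12 h it was still 4.24-fold above vehicle (log2FC 2.08, SE 0.331, adjusted p = 0.00289 in edgeR). From 2 h to 12 h the log2FC was -0.81 (95% interval -1.47 to -0.16, edgeR's adjusted p = 0.0611), which did not pass the test, although limma-voom gave an adjusted p of 0.0431.

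Egr1 (Entrez 13653, chromosome 18, overlapped on the other strand by Gm17507, which stranded counting kept apart), the most studied EGR factor and a standard read-out of ERK signaling, followed another course. Its levels were 4.29 and 2.74 CPM in vehicle cells, 2.58 and 2.67 CPM at 2 h, and 12.4 and 10.3 CPM at 12 h. The 2 h libraries lay just below the lower vehicle library, and both 12 h libraries were far above the rest. At 2 h the log2FC was -0.42 with a 95% interval from -1.09 to 0.24, so that an increase beyond 0.24 lies outside the interval (edgeR's adjusted p = 0.358). At 12 h Egr1 was 3.21-fold higher than with vehicle (log2FC 1.68, SE 0.263, adjusted p = 0.0027 in edgeR). It was 4.31-fold higher at 12 h than at 2 h, with a log2FC of 2.11 (SE 0.266, edgeR's adjusted p = 0.00191).

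Egr3 (Entrez 13655, chr14:70477252-70479964), an EGR factor known from muscle spindles and lymphocytes, was near the limit of these libraries. It had 5 and 9 counts with vehicle, 8 and 8 at 2 h, and 11 and 10 at 12 h, at most 0.573 CPM. The exact Poisson 95% interval of the vehicle counts was 1.62 to 11.7 and 4.12 to 17.1, and that of the highest library, with 11 counts, 5.49 to 19.7. These intervals cover counting error only, and they overlap between all libraries, so that no change was detectable at this depth. Without a filter on low counts the log2FC of Egr3 was -0.09 (SE 0.595) at 2 h and 0.20 (SE 0.574) at 12 h.

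Nr4a1 (Entrez 15370, chr15:101097277-101105223), also called Nur77, was higher in each later group. Its levels were 1.35 and 0.955 CPM in vehicle cells, 2.63 and 1.87 CPM at 2 h, and 5.14 and 5.13 CPM at 12 h, from 23 and 15, 52 and 37, and 118 and 100 counts. No group overlapped another. The log2FC at 2 h was 0.95 (95% interval 0.19 to 1.71), with an adjusted p of 0.0987 in edgeR, over the threshold of 0.05. At 12 h Nr4a1 was 4.41-fold higher than with vehicle (log2FC 2.14, SE 0.306, adjusted p = 0.00192 in edgeR), and with no filter on low counts the adjusted p was 0.000709. Between 2 h and 12 h the log2FC was 1.19 (SE 0.281, edgeR's adjusted p = 0.0184). That last call was lost without TGFb2h replicate 2, TGFb12h replicate 1 or TGFb12h replicate 2, fits in which fewer of all genes are called. The log2FC was then 0.96, 1.181 and 1.185.

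Nr4a2 (Entrez 18227, chr2:56959241-56976414), or Nurr1, a receptor needed by midbrain dopamine neurons, had 2.06 and 2.23 CPM in vehicle cells, 1.52 and 1.71 CPM at 2 h, and 4.75 and 4.16 CPM at 12 h. The 2 h libraries were the lowest of the 6 and the 12 h libraries the highest. The log2FC at 2 h was -0.41 (95% interval -1.03 to 0.21, edgeR's adjusted p = 0.347). At 12 h it was 1.05 (SE 0.243, adjusted p = 0.013 in edgeR), a 2.08-fold increase. Leaving out any library of these 2 groups ended the call, in fits in which fewer of all genes are called. The log2FC of Nr4a2 then ran from 0.94 to 1.13. Between 2 h and 12 h Nr4a2 rose 2.75-fold (log2FC 1.46, SE 0.245, adjusted p = 0.00539 in edgeR). That call was lost without TGFb12h replicate 1, where the log2FC was 1.35.

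Nr4a3 (Entrez 18124, chr4:48058025-48099319), or Nor1, was listed at 0 counts in 5 libraries and at 1 count in a 12 h library. Taken as a one-sided limit, a count of 0 allows up to 3 counts, which is 0.151 to 0.191 CPM in those libraries. Nr4a1 and Nr4a2 were the NR4A receptors with more than 1 count in a library at this depth.

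Ier2 (Entrez 15936, chr8:87185230-87186751), which encodes a small nuclear protein, was called in all 3 comparisons, and its replicates lay close together. Its levels were 12.76 and 11.01 CPM in vehicle cells, 26.9 and 25.4 CPM at 2 h, and 52.2 and 48.2 CPM at 12 h. Every library of a later group was above every library of the group before it. Ier2 rose 2.20-fold at 2 h (log2FC 1.14, SE 0.132, adjusted p = 0.00288 in edgeR) and 4.22-fold at 12 h (log2FC 2.08, SE 0.134, adjusted p = 9.6e-05). The step from 2 h to 12 h was itself a 1.92-fold increase (log2FC 0.94, SE 0.127, edgeR's adjusted p = 0.00245).

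Ier3 (Entrez 15937, chr17:35958629-35959868), or Iex-1, a regulator of cell survival and a known NF-kB target, had 25.6 and 22.7 CPM in vehicle cells, 24.7 and 14.3 CPM at 2 h, and 90.7 and 81.9 CPM at 12 h. The 2 h libraries differed from each other more than those of any other group for this gene, and 1 of them lay within the vehicle range. The log2FC at 2 h was -0.31 (95% interval -0.90 to 0.28, edgeR's adjusted p = 0.445). It was 0.03 without TGFb2h replicate 2 and -0.78 without TGFb2h replicate 1 (edgeR's adjusted p = 0.0168), so that its direction at 2 h depended on the library. At 12 h Ier3 was 3.56-fold higher than with vehicle (log2FC 1.83, SE 0.246, adjusted p = 0.00146) and 4.43-fold higher than at 2 h (log2FC 2.15, SE 0.248, adjusted p = 0.0014), the latter at percentile 99.2 of all genes tested.

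Ier5 (Entrez 15939, chr1:156943497-156946766), a cofactor of the heat shock factor HSF1, moved least of the 7 genes tested while having the highest CPM. Its levels were 137.8 and 120.8 CPM in vehicle cells, 108.3 and 103.5 CPM at 2 h, and 161.6 and 138.3 CPM at 12 h. Both 2 h libraries were below the vehicle libraries, and the lower 12 h library was within 1 CPM of the higher vehicle library. Neither change against vehicle passed the test, with a log2FC of -0.29 at 2 h (95% interval -0.58 to 0.0036, edgeR's adjusted p = 0.173) and 0.21 at 12 h (95% interval -0.08 to 0.50, adjusted p = 0.201). Between 2 h and 12 h Ier5 rose 1.42-fold (log2FC 0.50, SE 0.122, adjusted p = 0.0204 in edgeR). That call was lost without TGFb2h replicate 2, TGFb12h replicate 1 or TGFb12h replicate 2, fits in which fewer of all genes are called. The log2FC was then 0.47, 0.38 and 0.61.

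**Figure D2:**
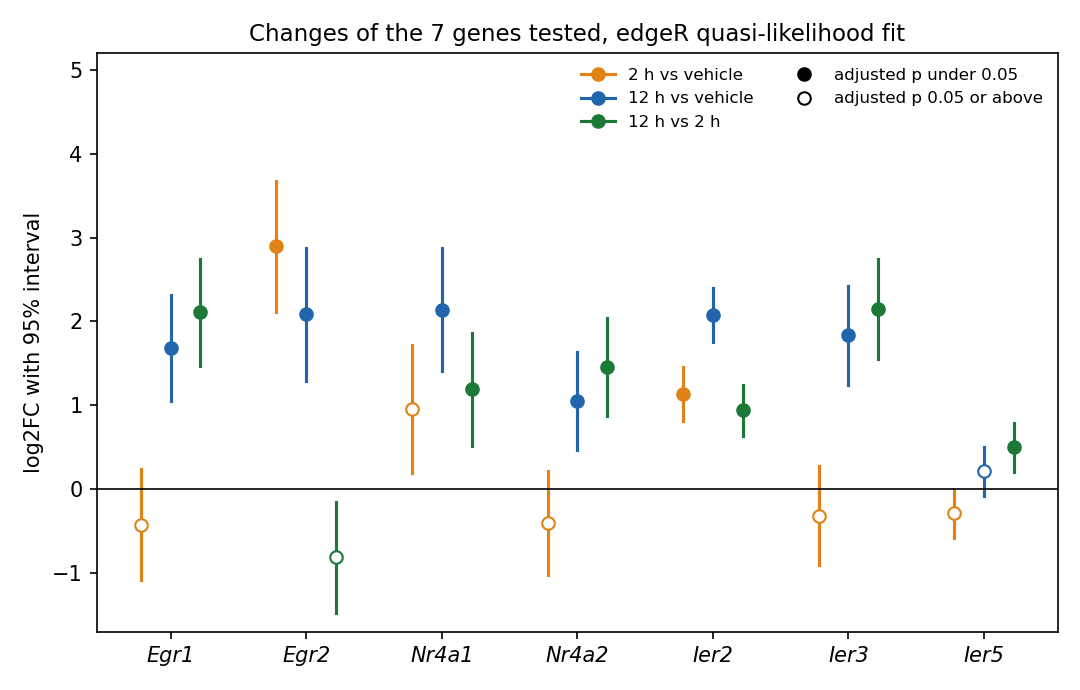
log2FC (y axis) of the 7 genes tested in the comparison of TGFβ1 for 2 h with vehicle, of 12 h with vehicle and of 12 h with 2 h, fitted over the 6 libraries in edgeR; bars are 95% intervals and filled points have an adjusted p under 0.05. At 2 h the points of Egr2 and Ier2 are filled, and at 12 h against vehicle all but that of Ier5.

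Counted over the 7 genes tested, 2 were higher at 2 h and 0 lower, against 9.91% and 5.25% of all genes tested. Without Egr2 and Nr4a1, which entered the test through treated libraries, 1 of 5 was higher at 2 h. An unadjusted p under 0.05 was reached by 3 of the 7 at 2 h, against 29.7% of all genes. At 12 h against vehicle, 6 of 7 were higher and 0 lower, against 21.8% and 21.5% of all genes. Egr2 and Nr4a1, 2 of these 6, had entered the test through treated libraries, and of the other 5 genes 4 were higher. Between 2 h and 12 h, 6 of 7 were higher and 0 lower, against 15.2% and 18.9%, and 3 were higher when TGFb12h replicate 1 was left out, a fit in which 5.5% of all genes were higher. limma-voom and DESeq2 gave the same counts in the comparisons with vehicle, also with 0 genes lower. With the further requirement of the study, an absolute log2FC above 1, the counts of higher genes were 2 at 2 h (4.23% of all genes), 6 at 12 h (8.03%) and 4 between 2 h and 12 h (4.5%), and 0 genes were lower in any of them (2.01%, 11.6% and 9.87% of all genes). Libraries of the compared groups did not overlap for 3 higher and 3 lower genes at 2 h, when 28.4% and 27.5% of all genes were so separated. At 12 h all 7 genes tested were separated from vehicle on the higher side, against 39.6% of all genes, and none on the lower side, where 37.2% of all genes lay. Between 2 h and 12 h, 6 were separated on the higher side and Egr2 on the lower, against 34.8% and 34.2%.

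Levels can be compared between genes only per length, here as CPM per kb of annotated exon (GENCODE on NCBIM37). The reads were counted on UCSC exons, so that a gene whose exons differ between these annotations has an inexact value per kb. This holds for the family shares below too. On this scale Ier5 had the highest vehicle level, 39.5 ± 3.67 (SD, n = 2), followed by Ier3 with 21.4 ± 1.82 and Ier2 with 7.81 ± 0.813. Egr1 came next with 1.13 ± 0.355, then Nr4a2 with 0.528 ± 0.0295, Nr4a1 with 0.466 ± 0.114, Egr3 with 0.295 ± 0.134 and Egr2 with 0.231 ± 0.0888 CPM per kb. In this order Nr4a2 and Nr4a1 differed by less than the SD of Nr4a1, and Egr3 and Egr2 by less than either SD. At 12 h the order was led by Ier3 with 76.3 ± 5.51, ahead of Ier5 with 45.9 ± 5.03 and Ier2 with 33.0 ± 1.85 CPM per kb.

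The EGR transcripts changed in composition along the course. As a share of the summed CPM per kb of the 3 EGR genes, Egr1 made up 73.7% and 61.3% in the vehicle libraries, 27.6% and 31.6% at 2 h, and 74.2% and 72.3% at 12 h. Egr2 made up 15.7% and 11.7%, then 63.2% and 58.3%, and then 19.7% and 20.1%. Egr2 was thus the most abundant EGR transcript per length in both 2 h libraries and Egr1 in the other 4. Among the IER genes, Ier3 went from 31.0% and 31.3% of the summed level with vehicle to 48.9% and 49.5% at 12 h. Ier5 went from 57.6% and 57.5% to 30.2% and 28.9%. Among the NR4A genes, Nr4a1 made up 51.9% and 41.3% with vehicle, 74.0% and 64.1% at 2 h, and 63.8% and 67.0% at 12 h. Shares of a sum move together by construction, and no test was made of them.

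**Figure D3:**
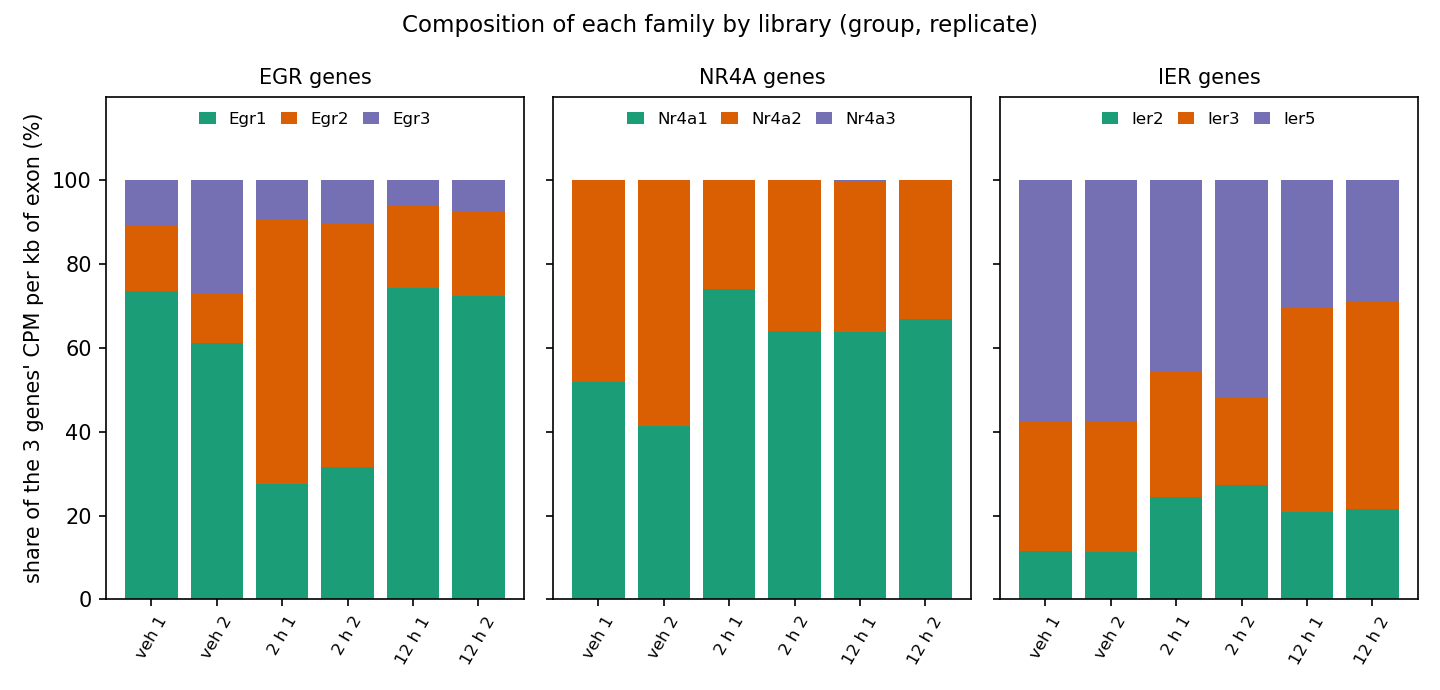
Share (y axis, %) of each gene in the summed CPM per kb of exon of its family, in each library (x axis: group and replicate), for the EGR, NR4A and IER genes; each bar adds up to 100%. Egr2 holds 63.2% and 58.3% of the EGR bar at 2 h and 20.1% or less in the other libraries.

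Likeness between profiles was measured as the distance between log2 CPM values of the 6 libraries, each gene set to 0 at its vehicle mean, so that a small distance means the same size of change in each library. Among the 7 genes tested, the closest pair was Nr4a1 and Ier2 (distance 0.538), and then Egr1 and Ier3 (distance 0.711). The mean levels of Nr4a1 and Ier2 both climbed from vehicle to 2 h to 12 h, but Nr4a1 did not pass the test at 2 h. The farthest pair was Egr2 and Ier5 (distance 4.69), followed by Egr2 and Nr4a2 (distance 4.40). Egr1 was closer to Ier3 than to Egr2. Nr4a1 was closer to Ier2 than to Nr4a2 (distance 2.25). The libraries fall into 3 groups, so that these distances describe few independent points.

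Across all genes tested, the profile nearest to Egr1 was that of Pus7, a pseudouridine synthase (distance 0.470), followed by Trmt61a, a tRNA methyltransferase subunit (0.471), and Fam110c (0.538). Near to Egr2 were Itgb6, an integrin β subunit (0.422), and Cdh6, a cadherin (0.618), with a log2FC at 2 h of 2.54 and 2.46. Nearest to Nr4a1 were Chsy1, a chondroitin synthase (0.337), Cdkn2b, which encodes the CDK inhibitor p15 (0.338), and Gm14005 (0.371). For Nr4a2 they were Cnn3, a calponin (0.252), Setd7, a lysine methyltransferase (0.298), and the ETS factor Etv4 (0.303). For Ier2 they were Tpbg (0.246), Plin2, a lipid droplet coat protein (0.281), and Epb41l4b (0.287). Ier3 was nearest to Prex2, a Rac exchange factor (0.456), Otud4, a deubiquitinase (0.569), and the noncoding RNA Mirt1 (0.594), and Ier5 to Slc25a26 (0.0745), Lrrc28 (0.147) and Thumpd1 (0.149).

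Factors that act upstream of immediate-early genes were read from a list of 15 genes of SRF, its partners and the ERK pathway, all of them tested. At 2 h, 5 were higher and 1 lower, against 9.91% and 5.25% of all genes, and at 12 h 4 were higher and 2 lower, against 21.8% and 21.5%. The median log2FC of the list was 0.21 at 2 h and 0.10 at 12 h, against -0.01 and 0.02 over all genes tested. Srf itself had 35.5 and 39.0 CPM in vehicle cells, 36.0 and 42.9 CPM at 2 h, and 45.4 and 51.5 CPM at 12 h, with a log2FC of 0.08 (SE 0.136, edgeR's adjusted p = 0.731) and 0.38 (SE 0.136, adjusted p = 0.0622). The change at 12 h was called in 4 of 14 alternative settings, among them the fit of only the compared groups (edgeR's adjusted p = 0.0404). At 2 h its sign turned to -0.03 with total counts in place of TMM factors. Mkl1, the actin-regulated coactivator of SRF, rose at both times, by 0.95 and 1.42 on the log2 scale. Elk3, a ternary complex factor, rose by 0.74 and 0.96. At 2 h the adjusted p of Mkl1 was 0.0572 without vehicle replicate 1, and that of Elk3 was 0.0573 and 0.0793 without vehicle replicate 1 and 2. Among the kinases that ERK activates, Rps6ka1 (RSK1) went from 110.6 and 111.2 CPM with vehicle to 50.1 and 52.1 CPM at 12 h, a log2FC of -1.12 (SE 0.094, edgeR's adjusted p = 0.000232). Rps6ka5 (MSK1) had a log2FC of -1.07 at 2 h and -1.01 at 12 h, called in 8 and 10 of 14 alternative settings. The count of 6 at 2 h fell to 0 without vehicle replicate 1, 1 without vehicle replicate 2, 3 without TGFb2h replicate 2 and 2 without either 12 h library. In the same fits the share of all genes called at 2 h went from 15.2% to 5.63%, 6.46%, 12%, 8.18% and 8.19%.

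Of 6 partners and corepressors of EGR and NR4A factors, 4 were tested, and Egr4 and Rxrg were at or near 0. Nab2, a corepressor that binds EGR proteins and is itself an EGR target, had 26.6 and 28.7 CPM in vehicle cells, 8.14 and 11.1 CPM at 2 h, and 14.0 and 18.2 CPM at 12 h. It fell by 1.52 on the log2 scale at 2 h (SE 0.211, adjusted p = 0.00532 in edgeR), and at 12 h it had a log2FC of -0.78 (SE 0.205, adjusted p = 0.0216). The call at 12 h was lost without vehicle replicate 1, vehicle replicate 2 or TGFb12h replicate 1, fits in which fewer of all genes are called. The log2FC of Nab2 was then -0.84, -0.73 and -0.61. Its relative Nab1 had a log2FC of -0.25 and -0.28, and neither passed the test, although 1 and 2 of 14 alternatives called them. Rxra and Rxrb, retinoid X receptors that pair with Nr4a1 and Nr4a2, had a log2FC of 0.47 and 0.18 at 2 h and of 0.45 and 0.36 at 12 h. The change of Rxrb at 2 h did not pass the test. Rxra was called in 7 of 14 alternatives at 2 h and 11 of 14 at 12 h, and Rxrb in 9 of 14 at 12 h. The median of the 4 genes tested was -0.04 at 2 h and 0.04 at 12 h. Of the 4 genes, 1 was higher and 1 lower at 2 h, against 9.91% and 5.25% of all genes, and 2 were higher and 1 lower at 12 h, against 21.8% and 21.5%. The number called at 2 h and at 12 h fell in each fit without a vehicle library or a 12 h library. At 2 h it also fell without TGFb2h replicate 2. The share of all genes called fell in the same fits.

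A list of 32 other immediate-early genes outside AP-1 served as the wider setting, of which 31 were tested. At 2 h, 13 were higher and 4 lower, against 9.91% and 5.25% of all genes. At 12 h 19 were higher and 4 lower, against 21.8% and 21.5%, or 14 and 1 without TGFb12h replicate 1, against 12.8% and 13.5% in that fit. Arc, Dusp5 and Rgs2 met the filter only on the side where they are high, and of the other 28 genes 11 were higher and 3 lower at 2 h, and 17 and 3 at 12 h. The median log2FC was 0.41 at 2 h and 0.72 at 12 h. The 4 genes with the largest absolute log2FC at either time were Arc, Ctgf, Sgk1 and Ier5l. Ier5l, the paralog of Ier5, had 5.82 and 9.29 CPM in vehicle cells, 50.8 and 67.6 CPM at 2 h, and 70.6 and 53.7 CPM at 12 h. Its log2FC of 2.97 at 2 h (SE 0.274, edgeR's adjusted p = 0.00126) and 3.04 at 12 h stand beside -0.29 and 0.21 for Ier5. Ctgf, a matrix-associated protein induced by TGFβ in many cells, had a log2FC of 3.06 at 2 h and 6.13 at 12 h, and the kinase Sgk1 one of 2.15 and 3.19. The call of Sgk1 at 2 h was lost without vehicle replicate 2 (edgeR's adjusted p = 0.0545). Arc had 1 count in the vehicle libraries together, 37 at 2 h and 295 at 12 h, so that its ratio to vehicle at 12 h, 227, has a counting interval of 40.5 to 9010. Arc reached 2 CPM only in the 12 h libraries and was tested through them, and its call at 2 h was lost without vehicle replicate 1 (edgeR's adjusted p = 0.0573). The 4 genes lower at 2 h, named after their values were seen, were the antiproliferative gene Btg2, the G protein regulator Rgs2, the EGF receptor inhibitor Errfi1 and the kinase Plk2, with a log2FC from -2.39 for Rgs2 to -1.34 for Plk2. Rgs2 reached 2 CPM only in the vehicle libraries and was tested through them.

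AP-1 genes, the best known immediate-early genes, were tested in the same fit. Of 9, 7 were higher at 2 h and 9 at 12 h, against 9.91% and 21.8% of all genes, with a median log2FC of 2.28 and 1.49. Over the 7 genes tested of the 9 described here, the median was -0.29 at 2 h and 1.83 at 12 h. Both medians rest on the same vehicle libraries. The log2FC of Fos was 3.16 at 2 h and 3.51 at 12 h, that of Junb 3.51 and 3.98 and that of Fosl2 2.53 and 2.24. Fosb, with 6 counts in the vehicle libraries together, had 1.81 (edgeR's adjusted p = 0.211) and 4.16 (adjusted p = 0.00392). It too reached 2 CPM only in the 12 h libraries, and with vehicle counts of 6 and 0 its log2FC turned on the vehicle library kept, from 0.88 to 6.70 at 2 h and from 3.23 to 9.04 at 12 h. Fos had 1.82 and 2.10 CPM in the vehicle libraries, so that it met the filter through the treated ones. Of the 7 AP-1 genes other than Fos and Fosb, 6 were higher at 2 h and 7 at 12 h. No test compared the lists with each other.

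**Figure D4:**
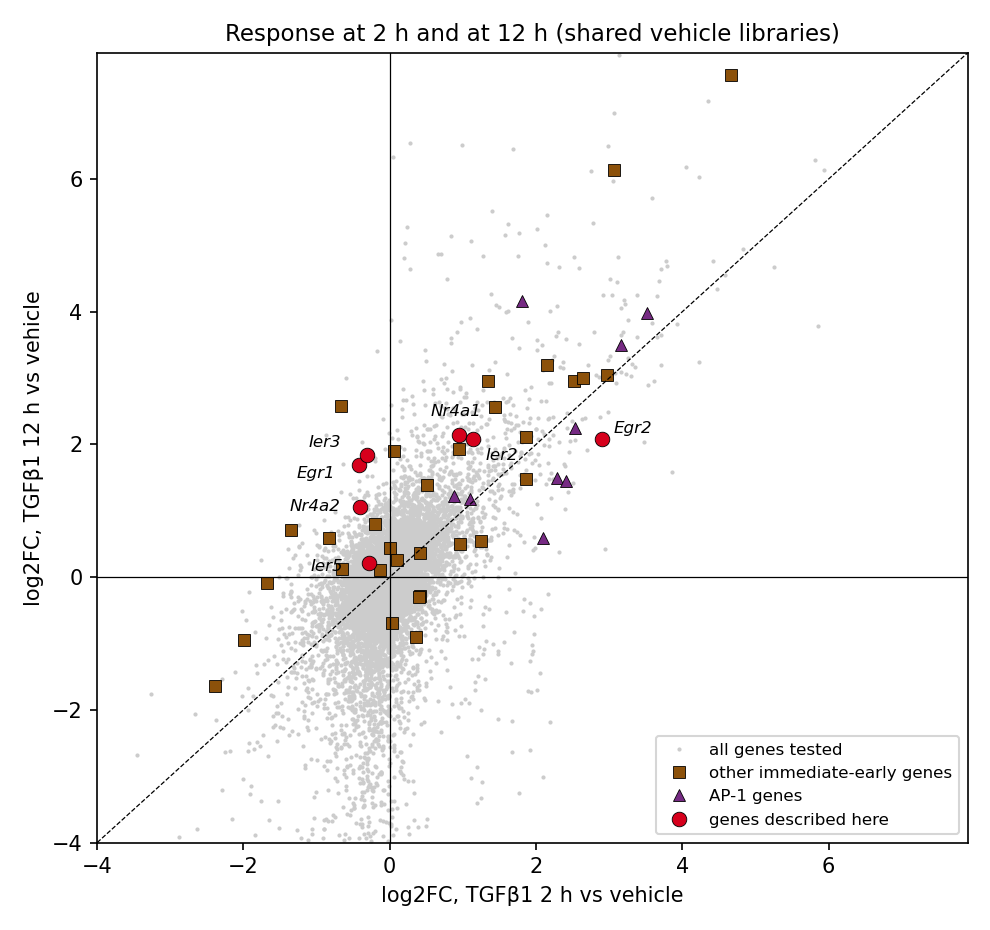
log2FC at 2 h (x axis) and at 12 h (y axis) against the same vehicle libraries, for all genes tested (grey), other immediate-early genes (brown squares), AP-1 genes (purple triangles) and the 7 tested genes described here (red, named); the dashed line marks equal values, and both axes run from -4 to 7.9, with 235 of the tested genes outside them. Egr2 lies to the right of the line, and Egr1, Nr4a2 and Ier3 lie to the left of 0 on the x axis and above 1 on the y axis.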

How the data were processed

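Total RNA of NMuMG cells in 3 groups of 2 libraries was sequenced with a stranded kit. According to the study's methods, the authors aligned single reads to mm9 with subjunc of Rsubread, kept unique alignments, removed duplicates with SAMtools 0.1.19, which can lower the counts of short, abundant transcripts, and counted reads on UCSC exons by strand with featureCounts. The submitters' notes also list edgeR 3.20.9 and limma 3.34.9. The deposited values are raw read counts per gene, whole numbers with another total in each library, and no column was left unused.

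Here the counts were fitted with edgeR 4.0.16 under R 4.3.3 (glmQLFit, TMM factors, 1 fit of all 6 libraries), for genes with at least 2 CPM in 2 libraries, and p-values were two-sided and adjusted by Benjamini-Hochberg within a comparison. limma 3.58.1 and DESeq2 1.42.0 were alternatives, with other scalings and filters, a replicate block, 2-group fits and each library left out. Figures were drawn with matplotlib 3.10.9 in Python 3.11.15. Profiles were compared as log2 of CPM plus 0.25. Named were the 9 genes, up to 4 called genes of each list by absolute log2FC, Srf, Nab1, Nab2, Egr4, the 3 nearest profiles per tested gene, and TGFβ targets as a check. Some genes that this rule names are not reported here. Genes and lists were chosen with earlier results of these data known. p-values measure the spread between 2 biological replicates a group. Intervals of counts are exact Poisson intervals at 95%. Fold changes between groups are unadjusted for time without serum.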

Additional observations from a re-analysis of the deposited data

Results flagged for a closer look

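The effects of TGFβ1 at 2 h and at 12 h share the vehicle libraries, so that their difference is the log2FC of 12 h against 2 h, which was tested in the same edgeR fit. It passed the test for 6 of the 7 immediate-early genes tested, all 6 higher at 12 h, as were 15.2% of all genes: 2.11 for Egr1, 1.19 for Nr4a1, 1.46 for Nr4a2, 0.94 for Ier2, 2.15 for Ier3 and 0.50 for Ier5. Of the other genes named by size or as factors of these pathways, those with a difference were Mkl1 (0.48), Rps6ka1 (-1.18), Nab2 (0.74), Arc (2.90), Ctgf (3.07), Sgk1 (1.04), Fosb (2.35) and Junb (0.47). Of the 4 genes named for being lower at 2 h, Btg2 (1.05), Errfi1 (1.59) and Plk2 (2.06) also passed it. They were chosen as low in the same 2 h libraries, which favours such a difference. With single libraries left out, the adjusted p in edgeR reached 0.2 for Mkl1, 0.198 for Nab2, 0.233 for Sgk1 and 0.188 for Junb, and over all alternatives the difference was called in 10, 8, 8 and 11 of 14. Among the immediate-early genes it was called in 11 of 14 for Nr4a1 and Ier5, in 13 of 14 for Nr4a2 and in all 14 for Egr1, Ier2 and Ier3. Vehicle was not sampled at 12 h, and in each of these differences TGFβ1 time and time without serum cannot be told apart. Groups of 2 libraries were too small for a test of single outlying libraries.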

How the results depend on the processing

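For the genes described here, 272 of 290 values under alternatives kept their direction and their side of the threshold, 11 lost and 6 gained a call, and 1 changed sign. Among the immediate-early genes tested, 2 were called at 2 h, but 1 with at least 10 counts required in every library, a filter that drops Egr2, and 4 with the replicate number as a block, which added Nr4a1 (adjusted p = 0.0407 in edgeR) and Ier5 (0.0465). The block also added Egr2 between 2 h and 12 h (0.0105). The deviations of same-numbered libraries from their group means correlated at 0.708, 0.263 and 0.392, but the labels state no shared batch and each comparison holds 2 pairs, so that the numbers were not taken to pair the libraries. With the block, 29.1% of all genes were called at 2 h against 15.2% without it. Leaving out single libraries changed the number of these genes called in each comparison, and the share of all genes called changed in the same fits.

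At 2 h, the SRF and ERK list had 2 calls when only the compared groups were fitted and 0 to 5 with a library left out, and the EGR and NR4A partners had 1 with total counts, 1 with only the compared groups and 1 to 3 with a library left out. At 12 h the partners had 0 to 4 and the other immediate-early genes 15 to 23 with a library left out. Total counts turned the log2FC at 2 h of Rps6ka1 to -0.048 and of Srf to -0.028, and moved the median of all genes to -0.12, with 7.71% of all genes then higher and 8.8% lower at 2 h and 16.5% and 27.5% at 12 h. With single libraries left out, the log2FC at 2 h ran from -0.78 to 0.028 for Ier3 and from -0.051 to 0.19 for Srf. Between 2 h and 12 h it ran from -0.22 to 0.42 for Rps6ka5, from -0.066 to 0.036 for Rxra, from -0.15 to 0.29 for Ier5l and from -0.23 to 0.20 for Nab1. The cause was not tested. Egr3 and Nr4a3 did not reach the filter and were not tested in the main fit.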
